A study of Mus musculus with 12 samples.

Results

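The G2 and mitosis genes described here are 36 genes of the mouse cell cycle that act between the end of DNA replication and the separation of daughter cells. They were chosen by gene symbol, with no measured value in the rule, but with earlier results of these data known. All 36 were listed with an adjusted p-value in every table, among 14097 genes that the 5 tables share. RNA had been sequenced from MC38 tumours, a mouse colon carcinoma line labelled with the C57BL/6 albino strain, after 6 days of culture of dissociated tumour fragments of 40 to 100 µm in collagen inside microfluidic chips. The 12 samples formed 4 groups of 3. The aPD-1 cultures received an antibody against PD-1, an inhibitory receptor of T cells, at 10 µg/mL. The aPD-1+CD8 cultures received this PD-1 antibody plus a CD8 antibody, each at 10 µg/mL, and the labels do not say whether CD8-bearing killer T cells were removed. The IFNg cultures received interferon-gamma protein at 100 ng/mL with no antibody named. The IgG cultures received a control antibody, clone 2A3, at 10 µg/mL, and no control antibody is named beside aPD-1 alone. The labels give no origin of the 3 samples within a group (separate tumours or separate cultures), so a p-value here measures their spread alone, and that spread may be technical.

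A cell enters mitosis when the kinase Cdk1, bound to a cyclin, is switched on by Cdc25 phosphatases and by feedback through Plk1 and Aurora A. Chromosomes then attach to spindle microtubules through their kinetochores, a checkpoint delays separation until every kinetochore is attached, and a contractile ring divides the cytoplasm. Transcripts of these genes accumulate in G2 through complexes of the MuvB core with B-Myb and Foxm1. The MuvB core binds a promoter element called CHR, often TTTGAA, and NF-Y binds CCAAT boxes beside it. In tumours these genes serve as a measure of dividing cells. Bulk RNA cannot tell apart fewer dividing cells and less of a transcript in each cell.

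Promoters were examined because a shared regulation is described for these genes while their values differed in these cultures. RefSeq promoters on GRCm38.p6, from 250 bases before to 50 bases after the annotated start, were found for 29 of the 36 genes. The CHR letters TTTGAA, on either strand, stood in 21 of these 29 genes (72.4%), against 14.3% of 10306 genes with a promoter in all 5 tables. A gene was counted where the promoter of any of its annotated starts held the motif. CCAAT, on either strand, stood in 23 of 29 (79.3%), against 43.2%, and 18 of 29 (62.1%) held both, against 7.17%. Of 89 other G2 and mitosis genes with a promoter, 49.4% held TTTGAA, 62.9% CCAAT and 38.2% both. For 38 DNA replication genes the shares were 15.8%, 60.5% and 7.89%, so a raised CCAAT share was not particular to the set. The first 5 sequences are the promoters at hand among the genes that were lower with aPD-1, with the first of 2 annotated starts for Ect2, and the last 3 belong to genes that were not called. Each runs over the 120 bases before the start, 5′ to 3′ on the gene's strand, and capitals mark TTTGAA or CCAAT, which read TTCAAA and ATTGG where the motif is on the other strand.
Anln, minus strand of chr9:22389207-22389326: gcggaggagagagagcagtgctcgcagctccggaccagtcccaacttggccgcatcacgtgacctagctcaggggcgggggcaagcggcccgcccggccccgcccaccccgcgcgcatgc
Ect2, minus strand of chr3:27153879-27153998: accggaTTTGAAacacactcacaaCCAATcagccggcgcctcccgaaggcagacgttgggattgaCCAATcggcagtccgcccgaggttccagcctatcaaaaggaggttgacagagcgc
Racgap1, minus strand of chr15:99651657-99651776: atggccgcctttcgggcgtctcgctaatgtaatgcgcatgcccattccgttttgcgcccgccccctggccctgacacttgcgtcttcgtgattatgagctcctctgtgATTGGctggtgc
Cdc25b, plus strand of chr2:131186828-131186947: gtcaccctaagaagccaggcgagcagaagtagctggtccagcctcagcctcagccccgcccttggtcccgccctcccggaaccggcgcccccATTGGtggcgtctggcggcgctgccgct
Nuf2, minus strand of chr1:169531465-169531584: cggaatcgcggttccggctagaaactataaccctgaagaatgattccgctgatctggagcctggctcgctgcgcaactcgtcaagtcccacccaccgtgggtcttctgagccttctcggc
Cdk1, minus strand of chr10:69352913-69353032: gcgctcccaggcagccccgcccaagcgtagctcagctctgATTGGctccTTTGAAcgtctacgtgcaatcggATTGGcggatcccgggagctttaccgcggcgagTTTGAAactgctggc
Cdc20, minus strand of chr4:118437344-118437463: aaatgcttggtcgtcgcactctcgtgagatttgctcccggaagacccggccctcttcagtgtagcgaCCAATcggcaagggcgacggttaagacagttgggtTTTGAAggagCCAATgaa
Top2a, minus strand of chr11:99024190-99024309: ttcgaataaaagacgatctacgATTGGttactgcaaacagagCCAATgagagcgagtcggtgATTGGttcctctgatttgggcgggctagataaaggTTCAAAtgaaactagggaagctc

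In the Cdk1 promoter TTTGAA began 71 and 15 bases before the start, and in Cdc20 it began 18 bases before the start with CCAAT 53 and 8 bases before it. In Top2a, TTTGAA on the other strand began 23 bases before the start. In Ect2 the motif began 114 bases before the start and again after it, while Anln and Racgap1 held TTTGAA only after the start, outside the stretch shown, and Cdc25b held CCAAT alone. Neither motif was in the Nuf2 window, which says only that these letters are not there. Among the genes lower with aPD-1, 3 of the 5 with a promoter held TTTGAA and 3 held CCAAT. Among those not called in that comparison the counts were 18 and 20 of 24. These are descriptions of the sequences, and with 5 genes in one class no difference is drawn from them.

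The mean normalized counts over both groups in the authors' deposited tables summed to between 10292941 and 11590748, of which Rn45s, the precursor of ribosomal RNA, took 27.8% to 29.6%. Those of the 36 genes ran from 21.3 for Cdc25c to 11990 for Top2a in the authors' deposited table for aPD-1 v IgG. These counts are not divided by gene length, so they say nothing on which gene is expressed more. The tables hold no single samples, and neither the spread of samples nor the depth of each library is analysed here. Group levels are therefore mean normalized counts solved from the 5 tables, each of which averages 2 groups of equal size, with no error. Epithelial markers were near 0, with mean counts of at most 0.564 for Epcam, 2.97 for Krt8, 3.74 for Krt19 and 4.05 for Vil1 in the authors' deposited tables, so the epithelial origin of the line was not visible in them. Of the 10 epithelial markers, 3 were tested in aPD-1 v IgG, and Krt19, which encodes a keratin, alone was called. It was lower in aPD-1 cultures, by a log2 fold change of -1.07 ± 0.38 (SE; adjusted p = 0.0284, DESeq2), at a mean count of 3.68. Krt8 was at -0.52 ± 0.38 (SE; adjusted p = 0.394, DESeq2) and Vil1 at 0.14 ± 0.36 (adjusted p = 0.867), in the authors' deposited table. Of all genes tested, 18.5% were called there. The part of Krt19 in the results was not tested. T cell markers were also near 0, with 3 of 11 listed in all 5 tables and a summed level of 2.68 in aPD-1, 2.45 in aPD-1+CD8, 10.8 in IFNg and 2.11 in IgG cultures, of which Lck gave 10.5 in IFNg cultures.

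PD-1 antibody against IgG asked what PD-1 blockade changed in the cultures. Of the 36 genes, 9 (25%) were lower in aPD-1 cultures and 0 were higher at an adjusted p under 0.05 in the authors' deposited DESeq2 table. Over all 12024 genes tested, 18.5% were called, 10.0% lower and 8.50% higher. The genes that fell were Anln, Ect2 and Racgap1 of cytokinesis, Ccna2, Cdc25b and Foxm1 of mitotic entry, and Nuf2, Incenp and Tpx2 of the kinetochore and spindle. The mitotic kinase Cdk1, both B-type cyclins and the proliferation marker Mki67 were not called. The median log2 fold change of the 36 genes was -0.06, against 0.01 for all genes tested, in the authors' deposited table. The called genes were a part of the set, and the median gene of the set stood close to 0, with 27 genes below 0 and 9 above. At the deposited standard errors 18 of the 36 could be called at a log2 change of 0.5. A gene not called is therefore not shown to be unchanged.

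**Figure D1:**
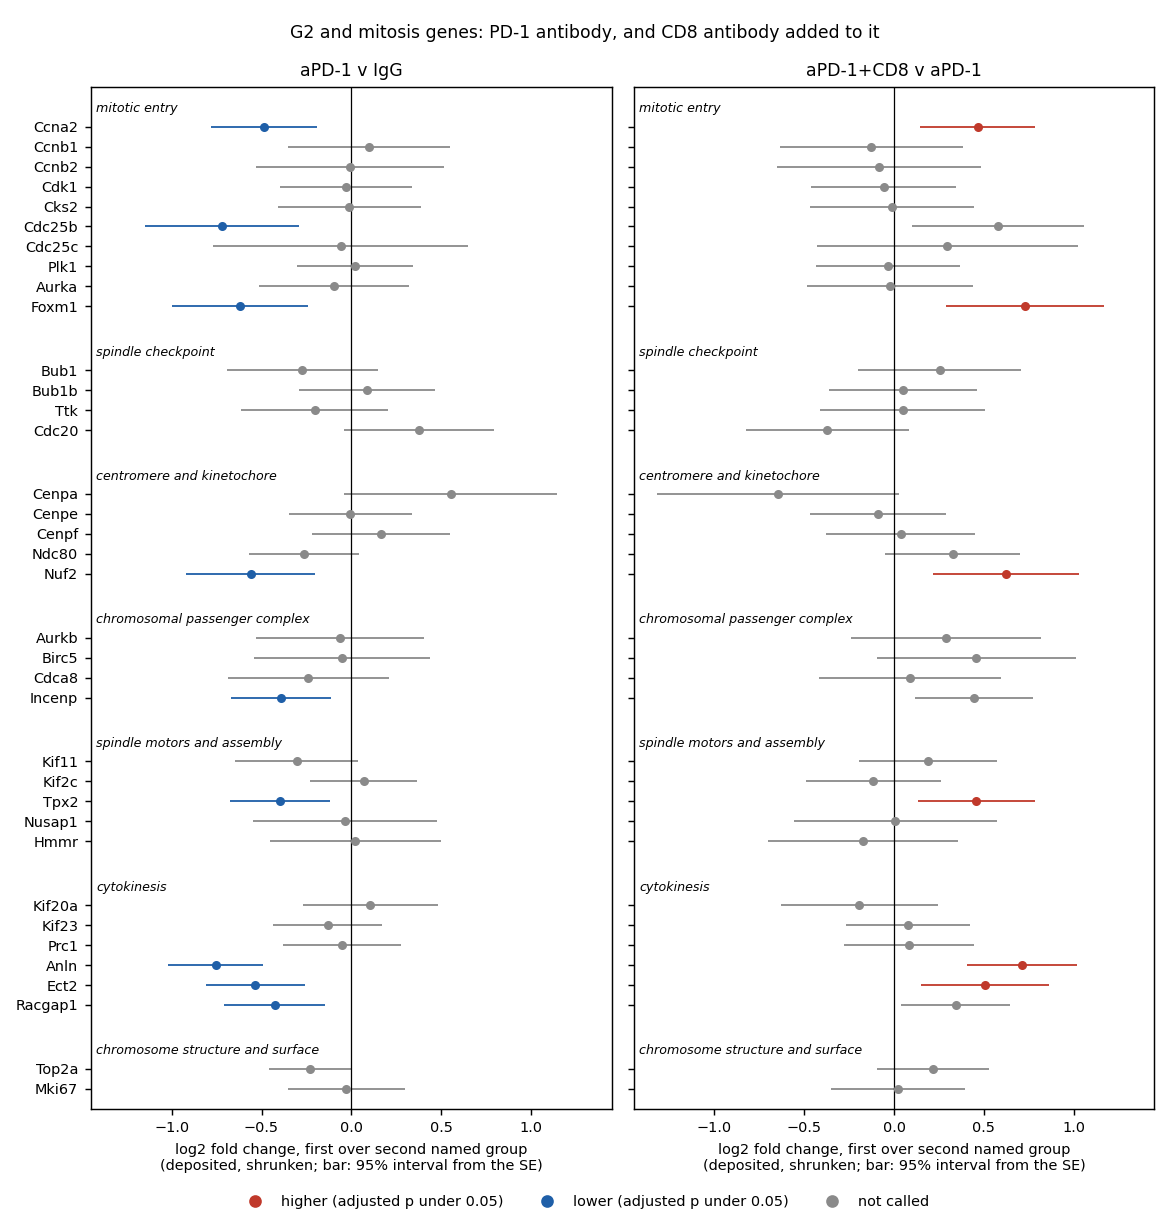
Log2 fold changes of the 36 genes in the authors' deposited tables of aPD-1 v IgG (left) and aPD-1+CD8 v aPD-1 (right), grouped by role; points are fold changes, bars 95% intervals from the standard error, and colours mark adjusted p under 0.05. The 9 genes called on the left lie between -0.75 and -0.39, and the 6 called on the right between 0.46 and 0.73.

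Cytokinesis held the gene with the smallest p. Anln encodes anillin, which ties the contractile ring to the membrane. Its group level was 538 in aPD-1, 891 in aPD-1+CD8, 674 in IFNg and 908 in IgG cultures, so the aPD-1 level was the lowest, at 59.2% of IgG. In the authors' deposited table for aPD-1 v IgG its log2 fold change was -0.75 ± 0.14 (SE), with an adjusted p of 6.5e-07 from DESeq2. Ect2, the exchange factor that switches on RhoA at the cell equator, had levels of 671 in aPD-1, 962 in aPD-1+CD8, 1034 in IFNg and 971 in IgG cultures. It fell by 0.54 ± 0.14 (SE) in log2 with aPD-1 (adjusted p = 0.00152, DESeq2), per the authors' deposited table. Racgap1, which forms centralspindlin with the motor Kif23 and binds Ect2, fell by 0.43 ± 0.14 (SE; adjusted p = 0.0189, DESeq2) in the authors' deposited table. Its partner Kif23 was at -0.13 ± 0.15, the microtubule bundler Prc1 at -0.05 ± 0.17 and the midzone motor Kif20a at 0.11 ± 0.19 (SE), none of them called in the authors' deposited table. Of the 6 cytokinesis genes, 3 were thus lower and 3 not called.

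Of the 10 mitotic entry genes 3 (30%) were lower, against 10.0% of all genes tested. Foxm1, the transcription factor that drives G2 transcripts, had group levels of 139 in aPD-1, 239 in aPD-1+CD8, 244 in IFNg and 218 in IgG cultures. Its log2 fold change with aPD-1 was -0.62 ± 0.19 (SE; adjusted p = 0.00991, DESeq2) in the authors' deposited table. Cdc25b, a phosphatase that activates Cdk1, had levels of 92.6 in aPD-1, 143 in aPD-1+CD8, 110 in IFNg and 158 in IgG cultures. It fell by 0.72 ± 0.22 (SE; adjusted p = 0.00833, DESeq2) per the authors' deposited table. Ccna2, the cyclin that acts both in S phase and in G2, stood at 386 in aPD-1, 537 in aPD-1+CD8, 469 in IFNg and 541 in IgG cultures. It fell by 0.49 ± 0.15 (SE; adjusted p = 0.0102, DESeq2) in the authors' deposited table.

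Cdk1 itself and the other mitotic entry genes that were not called gave values close to 0, unlike Cdc25b, which activates Cdk1. Cdk1 had group levels of 191 in aPD-1, 182 in aPD-1+CD8, 188 in IFNg and 193 in IgG cultures, the narrowest spread of the 36 genes, with the highest level 1.06 times the lowest. Its log2 fold change with aPD-1 was -0.03, with a 95% interval of -0.40 to 0.34, in the authors' deposited table. Ccnb1 and Ccnb2, the B-type cyclins that bind Cdk1 in mitosis, were at 0.10 ± 0.23 and -0.01 ± 0.27 (SE) in the authors' deposited table. Cks2, a small subunit of the same kinase, was at -0.01 ± 0.20, Plk1 at 0.02 ± 0.17, Aurka at -0.10 ± 0.21 and the phosphatase Cdc25c at -0.06 ± 0.36 (SE) there, in the authors' deposited table. These intervals leave room for changes: of the 27 genes not called, 12 had a 95% interval within 0.5 of 0 in log2. At the standard errors of the authors' deposited table, the smallest change that would be called ran from 0.30 for Top2a to 0.94 for Cdc25c, with a median of 0.50.

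Kinetochore, passenger complex and spindle genes gave 1 lower gene each, of 5, 4 and 5 tested, against 10.0% of all genes tested. Nuf2, a subunit of the Ndc80 complex that grips microtubules, stood at 141 in aPD-1, 223 in aPD-1+CD8, 167 in IFNg and 210 in IgG cultures. It fell by 0.56 ± 0.18 (SE; adjusted p = 0.0157, DESeq2), while its direct partner Ndc80 was at -0.27 ± 0.16 (adjusted p = 0.266), in the authors' deposited table. Incenp, the scaffold that carries Aurora B, fell by 0.39 ± 0.14 (SE; adjusted p = 0.0332, DESeq2) in the authors' deposited table. The other members of that complex, Aurkb, Birc5 and Cdca8, lay between -0.24 and -0.05 and were not called in the authors' deposited table. Tpx2, which activates Aurora A on the spindle, fell by 0.40 ± 0.14 (SE; adjusted p = 0.0326, DESeq2) in the authors' deposited table. The motor Kif11, which pushes the spindle poles apart, was at -0.31 ± 0.17, the microtubule depolymerase Kif2c at 0.07 ± 0.15, and the spindle proteins Nusap1 and Hmmr at -0.04 ± 0.26 and 0.02 ± 0.24 (SE), none called in the authors' deposited table.

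None of the 4 spindle checkpoint genes and neither chromosome gene was called, against 18.5% of all genes tested. The checkpoint kinases Bub1 and Ttk were at -0.27 ± 0.21 and -0.20 ± 0.21, and Bub1b at 0.09 ± 0.19 (SE), in the authors' deposited table. The largest positive values belonged to Cenpa, the histone variant that marks centromeres, at 0.55 ± 0.30 (SE; adjusted p = 0.218, DESeq2), and to Cdc20, the activator of the anaphase-promoting complex, at 0.38 ± 0.21 (SE; adjusted p = 0.239), in the authors' deposited table. Cenpa had group levels of 43.0 in aPD-1, 24.2 in aPD-1+CD8, 35.8 in IFNg and 27.1 in IgG cultures. Cdc20 stood at 141 in aPD-1, 107 in aPD-1+CD8, 154 in IFNg and 106 in IgG cultures. The kinetochore motor Cenpe and the kinetochore protein Cenpf were at -0.00 ± 0.17 and 0.17 ± 0.20 (SE) in the authors' deposited table. Mki67, whose protein coats mitotic chromosomes, was at -0.03 with a 95% interval of -0.35 to 0.30, and Top2a, which untangles replicated DNA, at -0.23 with an interval of -0.46 to -0.00 and an adjusted p of 0.169 (DESeq2), in the authors' deposited table.

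**Figure D2:**
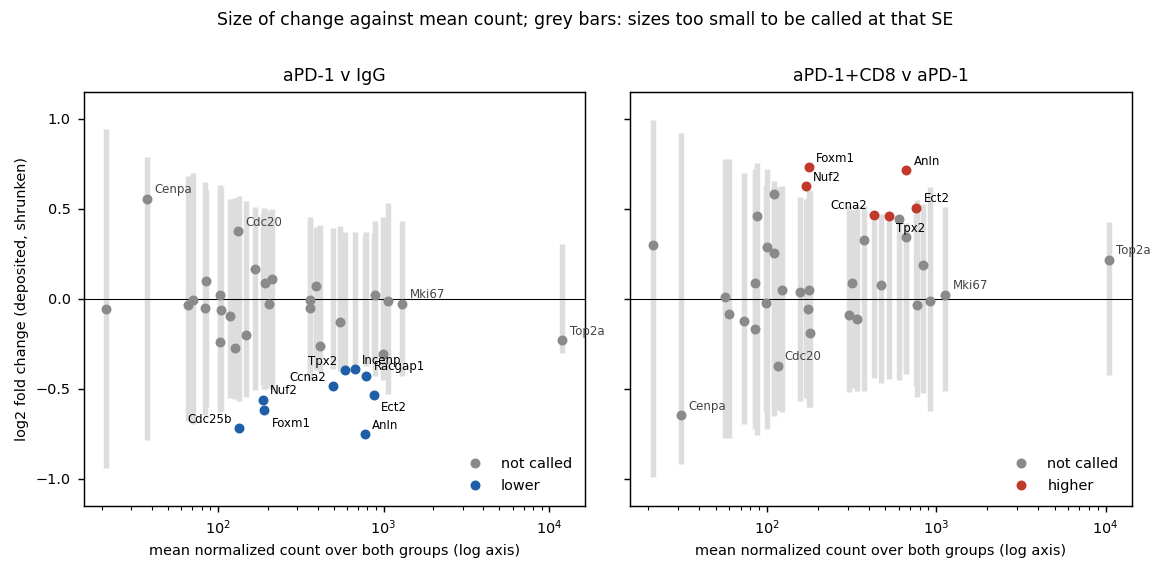
Log2 fold change against the mean normalized count over both groups (log axis) for the 36 genes, in aPD-1 v IgG (left) and aPD-1+CD8 v aPD-1 (right), from the authors' deposited tables; grey bars span the changes too small to be called at each gene's standard error. The 9 lower genes on the left had mean counts of 134 to 878, and Cdc25c, with a mean count of 21.3, would have needed a change of 0.94.

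The calls depend on how strict the threshold is. At an adjusted p under 0.01 in the authors' deposited table, Anln, Ect2, Cdc25b and Foxm1 remained of the 9. The Wald scores were also centred on their median over all genes and divided by their robust SD, 1.69, which counts changed genes as spread. With p-values from these scores adjusted anew by Benjamini-Hochberg, only Anln remained.

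The CD8 antibody added to the PD-1 antibody asked what the CD8 antibody changed under blockade. Of the 36 genes, 6 (16.7%) were higher in aPD-1+CD8 than in aPD-1 cultures and 0 were lower in the authors' deposited DESeq2 table. Over all 11560 genes tested, 14.8% were called, 7.82% higher and 6.94% lower. The genes that rose were Anln and Ect2 of cytokinesis, Foxm1 and Ccna2 of mitotic entry, Nuf2 of the kinetochore and Tpx2 of the spindle. The comparison shares its aPD-1 samples with aPD-1 v IgG, so the values of a gene in both are not independent. The median log2 fold change of the set was 0.08, against -0.00 for all genes tested, in the authors' deposited table.

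In the authors' deposited table for aPD-1+CD8 v aPD-1, Anln rose by 0.71 ± 0.16 (SE) in log2, with an adjusted p of 0.000113 from DESeq2. Foxm1 rose by 0.73 ± 0.23 (SE; adjusted p = 0.0121, DESeq2) and Nuf2 by 0.62 ± 0.21 (SE; adjusted p = 0.0218) in the authors' deposited table. Values for Ccna2, Ect2 and Tpx2 were 0.47 ± 0.16, 0.51 ± 0.18 and 0.46 ± 0.17 (SE), with adjusted p of 0.0334, 0.0393 and 0.0411 (DESeq2), in the authors' deposited table. Among the genes not called, Incenp was at 0.44 ± 0.17 (SE; adjusted p = 0.0538, DESeq2), Cdc25b at 0.58 ± 0.24 (adjusted p = 0.0964) and Racgap1 at 0.34 ± 0.16 (adjusted p = 0.129), in the authors' deposited table. Birc5, the survivin subunit of the passenger complex, was at 0.46 ± 0.28 (SE; adjusted p = 0.316, DESeq2), with group levels of 77.6 in aPD-1, 111 in aPD-1+CD8, 90.9 in IFNg and 79.9 in IgG cultures, by the authors' deposited table and the solved levels. The most negative values were Cenpa at -0.65 ± 0.34 and Cdc20 at -0.37 ± 0.23 (SE), with adjusted p of 0.222 and 0.322 (DESeq2), in the authors' deposited table. By role, 2 of 10 mitotic entry genes, 2 of 6 cytokinesis genes, 1 of 5 kinetochore genes and 1 of 5 spindle genes rose. None of the checkpoint, passenger complex or chromosome genes was called. Of all genes tested 7.82% were higher, and a difference between roles was not tested. At an adjusted p under 0.01 Anln alone was called, and none was with Wald scores centred and divided by their robust SD of 1.59. Adjusted over every gene with a p-value, with no filter on low counts, Ect2 and Tpx2 were no longer called (adjusted p = 0.0526 and 0.055, Benjamini-Hochberg on the p-values of the authors' deposited DESeq2 table).

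Both antibodies together against IgG gave no called gene. Of the 36 genes 0 were called, and of all 15304 genes tested 0 (DESeq2, the authors' deposited table), a background of 0%, and at an unadjusted p under 0.05 the counts were 0 and 57. The fold changes of this table are held very close to 0: over all genes they ran from -0.35 to 0.31 in log2, and those of the 36 genes from -0.08 to 0.17. Solved group levels were less compressed, and put the 36 genes in aPD-1+CD8 cultures at 89.2% to 138% of IgG, with a median of 99.0%. The lowest was Hmmr and the highest Birc5. Anln stood at 98.1%, Ect2 at 99.1% and Mki67 at 100.3% of IgG. Before solving, the tables were rescaled, which sets the typical gene close to equal between groups. Over 5706 genes with at least 100 counts the median solved log2 ratio was -0.002. With the tables on their own scales it was -0.42 for those genes and -0.43 for the 36. The median of 99.0% therefore depends on this scaling and does not measure a return to the IgG level.

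**Figure D3:**
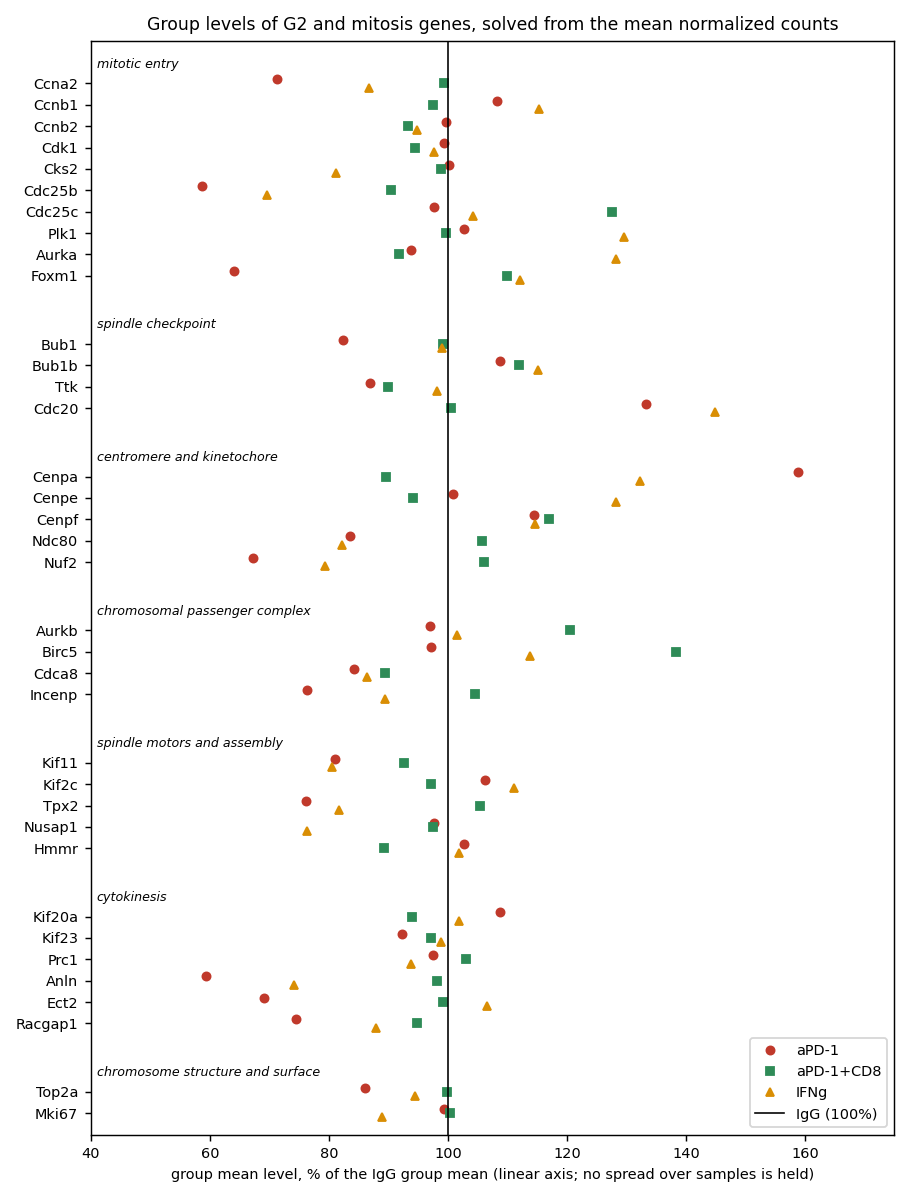
Group mean levels of the 36 genes as a percent of the IgG group mean on a linear axis, for aPD-1, aPD-1+CD8 and IFNg cultures, solved from the mean normalized counts of the 5 tables with no spread over samples. aPD-1 levels run from 58.7% for Cdc25b to 159% for Cenpa, while aPD-1+CD8 levels run from 89.2% to 138%.

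Interferon-gamma against IgG asked what the cytokine changed by itself. Of the 36 genes 0 were called in the authors' deposited DESeq2 table, against 4.10% of 11478 genes tested (2.73% higher and 1.38% lower), and 6 had an unadjusted p under 0.05, of which 3 were higher and 3 lower. The median log2 fold change of the set was -0.02, against 0.01 for all genes tested, in the authors' deposited table. Anln had the smallest p, at -0.40 ± 0.15 (SE; adjusted p = 0.147, DESeq2), and Cdc25b was at -0.43 ± 0.21 (adjusted p = 0.361), in the authors' deposited table. The largest positive values were Cdc20 at 0.46 ± 0.20 (SE; adjusted p = 0.284, DESeq2), Plk1 at 0.34 ± 0.15 (adjusted p = 0.295) and Cenpe at 0.32 ± 0.16 (adjusted p = 0.365), in the authors' deposited table. Plk1 had group levels of 838 in aPD-1, 814 in aPD-1+CD8, 1057 in IFNg and 816 in IgG cultures, highest with interferon-gamma. Of the 36 genes, 13 had a 95% interval within 0.5 of 0, and all 36 within 1, on the shrunken log2 scale of the authors' deposited table.

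Interferon-gamma against the PD-1 antibody gave 2 called genes, Ect2 and Foxm1, both higher in IFNg cultures. They are 5.56% of the 36, against 15.5% of 12260 genes tested, 8.39% higher and 7.13% lower, in the authors' deposited DESeq2 table. Ect2 rose by 0.61 ± 0.17 (SE; adjusted p = 0.00292) and Foxm1 by 0.77 ± 0.24 (adjusted p = 0.0106), per DESeq2 in the authors' deposited table. Anln was at 0.32 ± 0.18 (SE; adjusted p = 0.249, DESeq2) and Aurka, the spindle pole kinase, at 0.42 ± 0.24 (adjusted p = 0.257), in the authors' deposited table. At an adjusted p under 0.01 Ect2 alone remained. With Wald scores centred and divided by their robust SD of 1.57 neither was called (adjusted p = 0.233 for Ect2 and 0.357 for Foxm1, Benjamini-Hochberg, from the DESeq2 scores). In IFNg cultures the solved levels were 107% of IgG for Ect2 and 112% for Foxm1, but 74.2% for Anln and 69.6% for Cdc25b. The direct comparison of IFNg with aPD-1 cultures did not call Anln or Cdc25b, the last at 0.23 ± 0.26 (SE; adjusted p = 0.66, DESeq2) in the authors' deposited table.

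**Figure D4:**
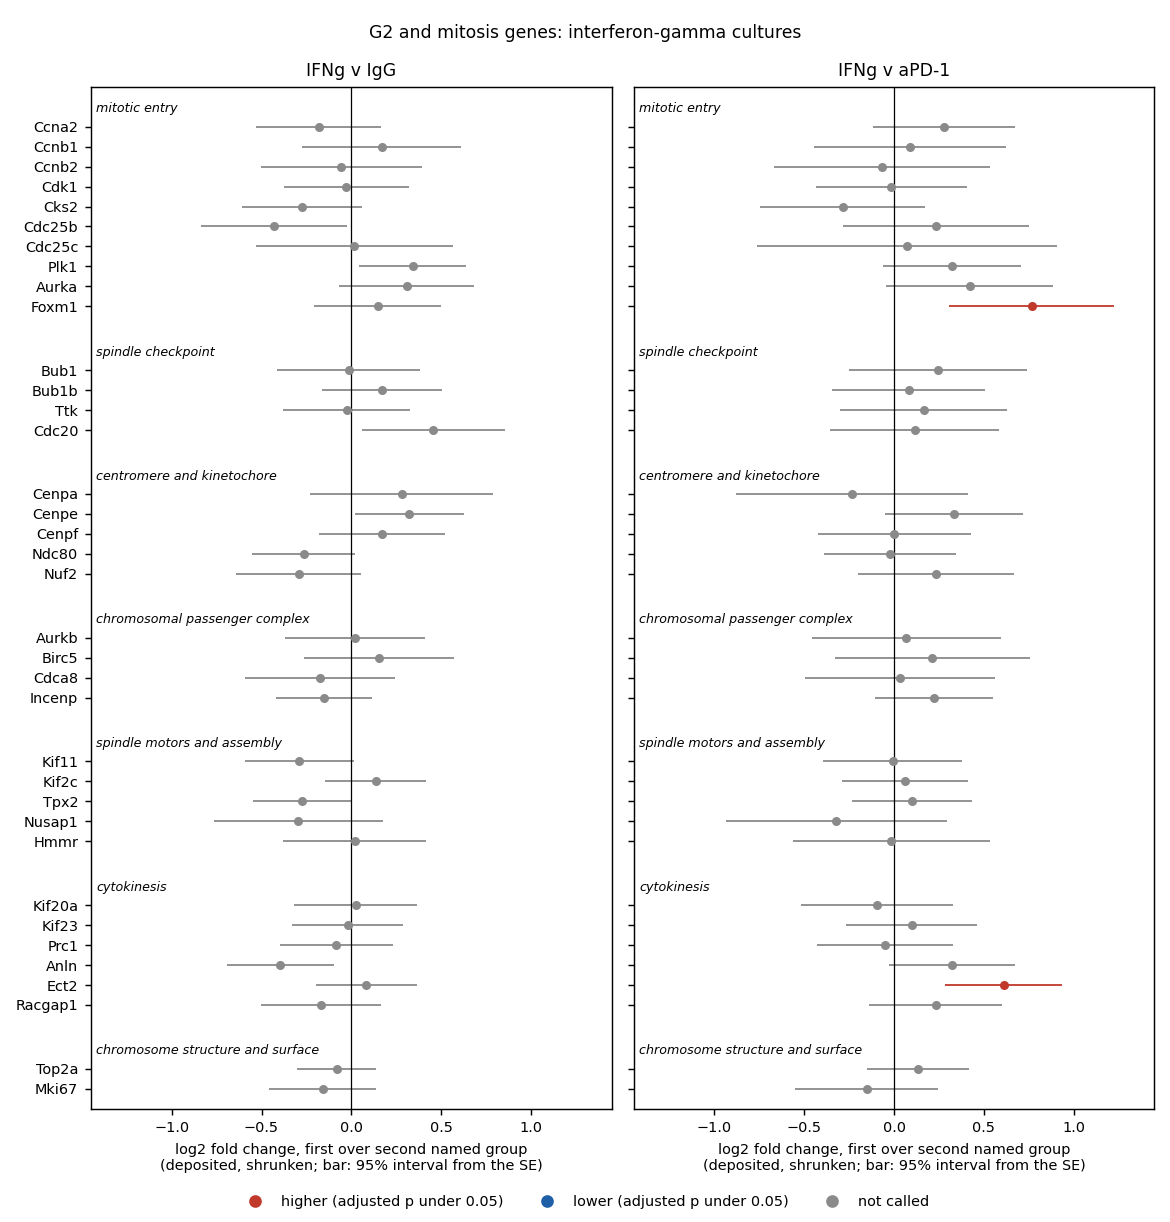
Log2 fold changes of the 36 genes in the authors' deposited tables of IFNg v IgG (left) and IFNg v aPD-1 (right), grouped by role; points are fold changes, bars 95% intervals from the standard error, and colours mark adjusted p under 0.05. No gene is called on the left, and Foxm1 at 0.77 and Ect2 at 0.61 are called on the right.

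The spread of each gene over the groups was described by the ratio of its group levels. The highest of the 4 group levels was 1.26 times the lowest at the median of the set, with a range of 1.06 for Cdk1 to 1.77 for Cenpa. The same ratio had a median of 1.36 over 8863 genes whose mean count was 20 or more. For 47 genes of DNA replication above that count the median was 1.64.

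Other genes of the pathway were counted from a list of 109 further G2 and mitosis genes. With aPD-1 against IgG, 11 (10.1%) were lower, a share close to the 10.0% of all genes tested, and 0 higher, with a median log2 fold change of -0.18, in the authors' deposited table. Of their classes, 4 of 20 kinases and transcription factors, 3 of 33 kinetochore and centromere genes, 2 of 11 condensin and cohesion genes and 2 of 19 ubiquitin ligase genes were lower, and 0 of 26 motor, spindle and centrosome genes. With aPD-1+CD8 against aPD-1, 10 (9.17%) were higher, against 7.82% of all genes tested, and 0 lower, with a median of 0.18, in the authors' deposited table. With IFNg, 0 were called against IgG, where 6 had an unadjusted p under 0.05, and 3 (2.75%) were higher against aPD-1, below the 8.39% of all genes tested, in the authors' deposited DESeq2 tables. Mybl2, which encodes the B-Myb partner of MuvB, fell by 1.01 ± 0.14 (SE; adjusted p = 3.2e-11, DESeq2) with aPD-1, and was higher by 1.10 ± 0.18 in aPD-1+CD8 and by 0.96 ± 0.17 in IFNg than in aPD-1 cultures, in the authors' deposited tables. Lin54, the MuvB subunit that contacts the CHR element, fell by 0.74 ± 0.15 (SE; adjusted p = 1.3e-05, DESeq2) with aPD-1, and was higher by 0.66 ± 0.16 in aPD-1+CD8 and by 0.53 ± 0.17 in IFNg than in aPD-1 cultures, in the authors' deposited tables.

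**Figure D5:**
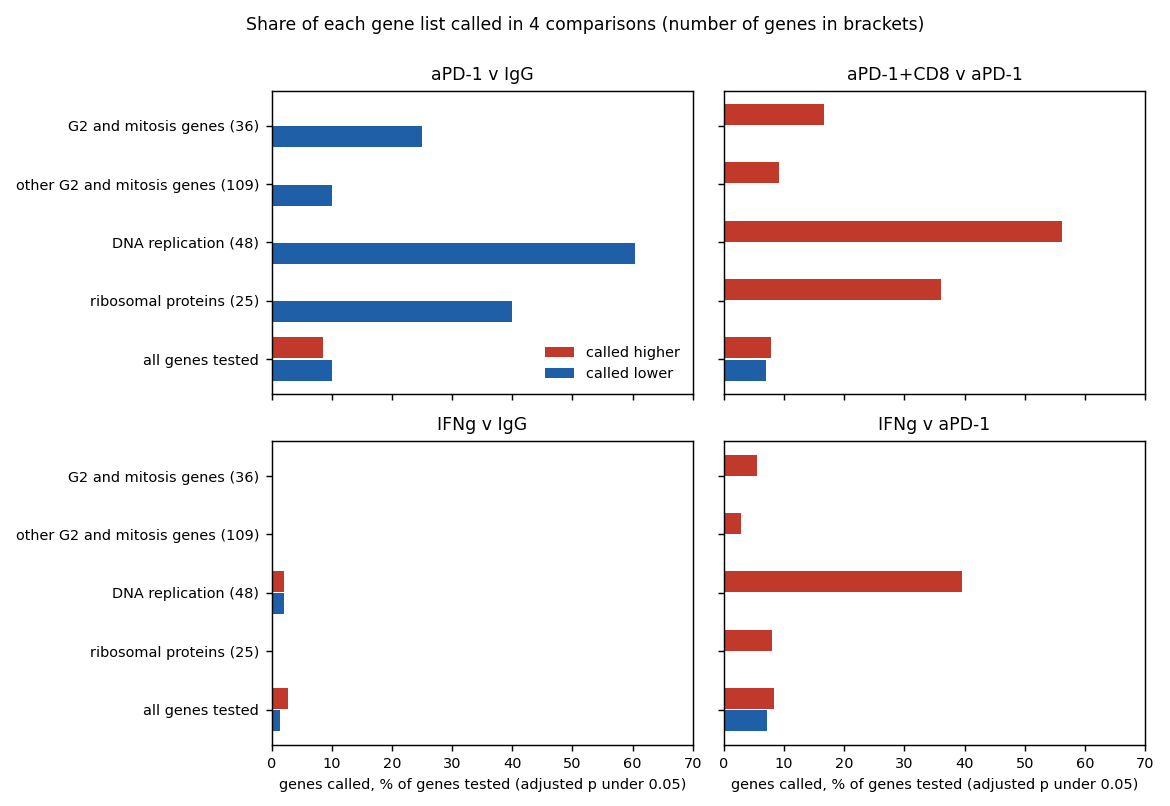
Percent of the genes tested in each list that were called higher or lower at an adjusted p under 0.05 in 4 comparisons of the authors' deposited tables, beside all genes tested. With aPD-1 against IgG, 25% of the 36 G2 and mitosis genes and 60.4% of 48 DNA replication genes were called lower, against 10.0% of all genes.

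Genes of earlier cell cycle phases are given for comparison. Of 48 DNA replication genes, 29 (60.4%) were lower with aPD-1, against 10.0% of all genes tested, and 0 higher. Their median log2 fold change was -0.56 in the authors' deposited table. In aPD-1+CD8 against aPD-1, 27 (56.25%) were higher, against 7.82% of all genes tested, with a median of 0.66. In IFNg against aPD-1, 19 (39.6%) were higher, against 8.39%, with a median of 0.51, in the authors' deposited tables. Pola1, the catalytic subunit of the polymerase that starts each strand, fell by 1.05 ± 0.13 (SE; adjusted p = 1.8e-13, DESeq2) with aPD-1 in the authors' deposited table. Of 19 G1 cyclins, Cdk inhibitors and pocket proteins tested, 7 (36.8%) were lower and 1 (5.26%) higher with aPD-1 in the authors' deposited table. Over all genes tested the shares were 10.0% and 8.50%. Ccnd1, the cyclin D1 that starts passage out of G1, fell by 1.90 ± 0.19 (SE; adjusted p = 8.2e-22, DESeq2), and Cdkn1a, which encodes the Cdk inhibitor p21, was at 0.31 ± 0.30 (adjusted p = 0.561), in the authors' deposited table. Whether the difference in counts between these lists and the 36 genes exceeds their spread was not tested, since single samples are not analysed here.

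Other lists moved in the same comparisons. Fibroblast markers were higher with aPD-1 in 5 of 8 tested (62.5%) in the authors' deposited table, against 8.50% of all genes tested. Of the 8, 6 were above 0 and 2 below. In aPD-1+CD8 v aPD-1, 4 of 8 (50%) were lower, against 6.94% of all genes tested. In IFNg v aPD-1, 5 of 8 (62.5%) were lower, against 7.13%. With IFNg v IgG, 1 of 8 tested was higher and 3 lower, against 2.73% and 1.38% of all genes tested. The median log2 fold change there was -0.20. Of the 11 markers, 10 were listed in all 5 tables. Their summed level was 20170 in aPD-1, 5139 in aPD-1+CD8, 7003 in IFNg and 5314 in IgG cultures. Fbn1 alone supplied 11090 of it in aPD-1, 2503 in aPD-1+CD8, 4257 in IFNg and 2401 in IgG cultures. Without Fbn1 the sum was 9077 in aPD-1, 2636 in aPD-1+CD8, 2745 in IFNg and 2913 in IgG cultures. Ribosomal protein genes were lower with aPD-1 in 10 of 25 (40%) in the authors' deposited table, against 10.0% of all genes tested. In aPD-1+CD8 v aPD-1, 9 of 25 (36%) were higher, against 7.82% of all genes tested, in the authors' deposited table. Their summed levels were 102200 in aPD-1, 134300 in aPD-1+CD8, 121300 in IFNg and 132000 in IgG cultures. Their values may also vary with RNA quality, which was not tested. Macrophage markers, of which 11 of 12 were listed, summed to 499 in IFNg cultures and to between 199 and 219.8 in the other 3 groups. Of the IFNg sum, 342 came from Csf1r, singled out after its value was seen, which has no adjusted p there. Without it the sum was 180.0 in aPD-1, 174 in aPD-1+CD8, 156 in IFNg and 194 in IgG cultures. In IFNg v IgG the median log2 fold change of the 9 macrophage markers tested was -0.14, with 0 higher and 1 lower, Mrc1 at -1.29 ± 0.28 (SE; adjusted p = 0.000201, DESeq2), in the authors' deposited table. In aPD-1 v IgG the median of the 10 tested was -0.34, with 7 below 0 and 3 above. Cd14 alone was called there, higher by 1.08 ± 0.37 (SE; adjusted p = 0.0239, DESeq2), in the authors' deposited table. Of all genes tested, 18.5% were called in that comparison and 4.10% in IFNg v IgG. The part of each of these lists in the values of the G2 and mitosis genes was not tested. The summed level of the 36 genes was 21610 in aPD-1, 25010 in aPD-1+CD8, 23710 in IFNg and 25100 in IgG cultures. Top2a alone supplied 10360 of it in aPD-1, 12020 in aPD-1+CD8, 11390 in IFNg and 12050 in IgG cultures.

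Some counts may include reads of neighbours. In the mouse annotation GENCODE M21, exons of 11 of the 36 genes overlap another annotated gene. For 7 of them that gene is in the tables and on the opposite strand, among them Ccna2 with Exosc9, Cdc25b with Spef1 and Cdc20 with Elovl1. Foxm1 overlaps Tex52 and Gm44596, and Top2a a small nucleolar RNA, on the same strand, where no strand setting would separate the reads. How strand was used in counting is not given in the sources, so the values of these 11 genes are less certain. Pseudogenes named after Ccnb1 and Ccnb2 stand in the annotation and not in the tables.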

How the data were processed

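RNA of 12 MC38 tumour cultures was captured with exome probes from 250 ng of total RNA, per the labels' protocols. The authors deposited 5 comparison tables, made with DESeq2 on mm9 per the submitters' processing notes. Not given in the sources used here are the DESeq2 version, the aligner, the counter, the annotation and the strand setting. Each table gives, per the file headers, a mean normalized count per gene (a signal averaged over both groups and scaled for library size by the authors). It also gives a log2 fold change (first named group over the second) with its standard error, a Wald score, and a p-value with its adjusted p-value, all as the authors deposited them. Small standard errors at low counts are how shrunken fold changes look, so the fold changes are taken as shrunken, most in aPD-1+CD8 v IgG. The tables held 0 columns of single samples, so depth per library and leaving out a library are not analysed here.

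The 36 genes and the other lists were chosen with earlier results of these data known. A gene was called at a deposited adjusted p under 0.05, which corrects over all genes tested. Any of the 36 could be named. From each other list the 2 higher and 2 lower genes with the smallest adjusted p could be named, besides Mcm2 and Cdkn1a. Group levels were solved by least squares after the tables were brought to 1 scale by the median ratio of mean counts over 5706 genes with at least 100 in every table. That rescaling was chosen after seeing the data. The solved levels gave back the tables' mean counts of the 36 genes within 0.165%. With 4 levels fitted to 5 means, a close fit says little on the accuracy of each level. Procedures were tested on simulated data, where calling was tried on changes larger than those of the called G2 and mitosis genes. These tests therefore do not measure how well changes of the size seen here are recovered. Python 3.11.15, pandas 2.3.3 and scipy 1.17.1 were used. The promoters are RefSeq's on GRCm38.p6, and no coordinates of mm9 are given.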

Additional observations from a re-analysis of the deposited data

How the results depend on the processing

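No paired analysis was possible because the tables hold no single samples, and for the same reason no sample was left out. Of the 9 genes lower in aPD-1 v IgG, 4 remained at an adjusted p under 0.01. With a log2 fold change of at least 0.5 in size, 5 remained. With Wald scores centred on their median and divided by their robust SD over all genes, 1 remained. Of the 6 genes higher in aPD-1+CD8 v aPD-1, 1 remained at 0.01 and 0 with divided scores, and of the 2 higher in IFNg v aPD-1, 1 and 0. With no filter on low counts, Ect2 and Tpx2 lost their call in aPD-1+CD8 v aPD-1, leaving 4 of 6. A looser threshold of 0.1, a minimum mean count of 10 and centring on the median of all genes ended no call, and no called gene changed direction. Solved from tables left on their own scales, the median log2 ratio of the 36 genes was -0.26 in aPD-1+CD8 v aPD-1, against 0.08 as deposited, and -0.43 in aPD-1+CD8 v IgG, against -0.01. Genes with at least 100 counts had medians of -0.33 and -0.42 under that setting, so it moved all genes. At the deposited standard errors 18 of 36 genes could be called at a log2 change of 0.5 in aPD-1 v IgG, 9 in aPD-1+CD8 v aPD-1, 13 in IFNg v IgG and 8 in IFNg v aPD-1.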
